A study of Mus musculus with 19 samples.

Results

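The genes described here encode the transforming growth factor beta (TGF-beta) and bone morphogenetic protein (BMP) signalling system of mouse kidney. They were taken from the gene count table by a pattern on the gene symbol that covers the TGF-beta, BMP, GDF, activin and inhibin ligands, their receptors, the SMADs and SMURFs, the ID proteins, the SKI and TGIF corepressors and the main secreted antagonists. The pattern found 78 of 55536 genes, and 55 of them reached the required 190 counts summed over the 19 libraries. A further 17 had counts below that minimum and 6 had none. Of all 55536 genes, 15165 reached the same minimum. Just inside the minimum were Bmp15 with 261 counts and Tgfbr3l with 405, and just outside it Nog with 172 and Gdf3 with 158. The pattern also took in Bmp1, a secreted metalloprotease, and Bmp2k, a protein kinase, which carry the name but are not BMP ligands.

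TGF-beta and its relatives are secreted dimers that bind a complex of type I and type II serine/threonine kinase receptors. TGF-betas and activins signal mainly through SMAD2 and SMAD3, BMPs mainly through SMAD1, SMAD5 and SMAD9, and both branches share SMAD4 in the nucleus. In the kidney TGF-beta is best known as a driver of matrix production in injury, whereas BMP7, made by tubular cells and podocytes, is needed for kidney development and has been studied as a brake on fibrosis.

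RNA came from whole mouse kidney in 3 groups: 4 libraries from healthy animals, 7 from obstructed kidneys given vehicle and 8 from obstructed kidneys given zalfermin, a long-acting analogue of the hormone FGF21. Obstruction means unilateral ureteral obstruction (UUO), in which a ureter is closed surgically and the kidney above it becomes fibrotic. The design text describes the healthy controls as vehicle-treated whereas their labels call them untreated, and the labels of all obstructed libraries give the condition as MASH, a liver disease, where the design text gives UUO. The labels name the drug by a code, taken here as zalfermin because the study names no other agent. The sources used here do not give strain, sex, age, dose or duration. Whether each library is a separate animal is not stated, and the p-values therefore speak only of the spread among these samples, which may be technical.

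Total counts were 12209122 to 14844103 per library. Vehicle replicate 6 stood apart, with counts in 19788 genes where the rest of its group had 21374 to 22216, and 1.1% of counts from mitochondrial genes where the rest had 3.09% to 4.21%. The mitochondrial share was 8.77% to 10.2% in healthy and 2.95% to 4.25% in zalfermin libraries, so it moved with obstruction, and its part in the results was not tested. The 55 genes took 0.143% to 0.175% of all counts in healthy libraries, 0.281% (replicate 6) to 0.359% in vehicle libraries and 0.31% to 0.356% in zalfermin libraries. Kidney markers were present in every group. The summed level of 5 proximal tubule markers was 10801.4 to 13459.3 CPM (counts scaled to a common library size with TMM library factors) in healthy, 1972.0 to 4305.0 CPM in vehicle and 2232.1 to 4311.2 CPM in zalfermin kidneys. The sum of 6 fibroblast and myofibroblast markers was 143 to 215, 1131.7 to 2048.8 and 724 to 1151.2 CPM in the same order, and that of 6 macrophage markers 134 to 160, 816 to 1042.4 and 663 to 965 CPM. All 6 fibroblast and all 6 macrophage markers were called higher with obstruction and all 5 proximal tubule markers lower, and none of these markers was at 0 in any group. In whole tissue fewer cells of a type and less RNA per cell cannot be told apart, and the part of cell composition in the results that follow was not tested.

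The obstruction comparison asks how the pathway's transcripts differ between vehicle-treated obstructed and healthy kidneys. Of the 55 genes, 36 were higher (65.5%) and 3 lower (5.45%) in obstructed kidneys by edgeR's quasi-likelihood test at a Benjamini-Hochberg adjusted p under 0.05, against 36.2% higher and 28.6% lower among all 16026 genes tested. Without vehicle replicate 6 these counts were 37 and 4. The median log2 fold change was 0.56 over the 55 genes and 0.09 over all genes. A rise of at least 2-fold was called in 18 of the 55 (32.7%, against 19.6% of all genes), and in 26 that were higher no vehicle library overlapped the healthy ones (47.3%, against 24.7%). Of the 55, 49 passed the low-count filter on the healthy libraries alone. The others were Inhba, Tgif2, Grem1, Inha, Tgfbr3l and Bmp15, and the rises of the first 4 of these are therefore not counted as support. Of the 49, 32 were higher and 3 lower, 14 (28.6%) were called higher by at least 2-fold and 23 (46.9%) were higher without overlap. The plot of fold changes by family shows 54 of the 55.

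**Figure D1:**
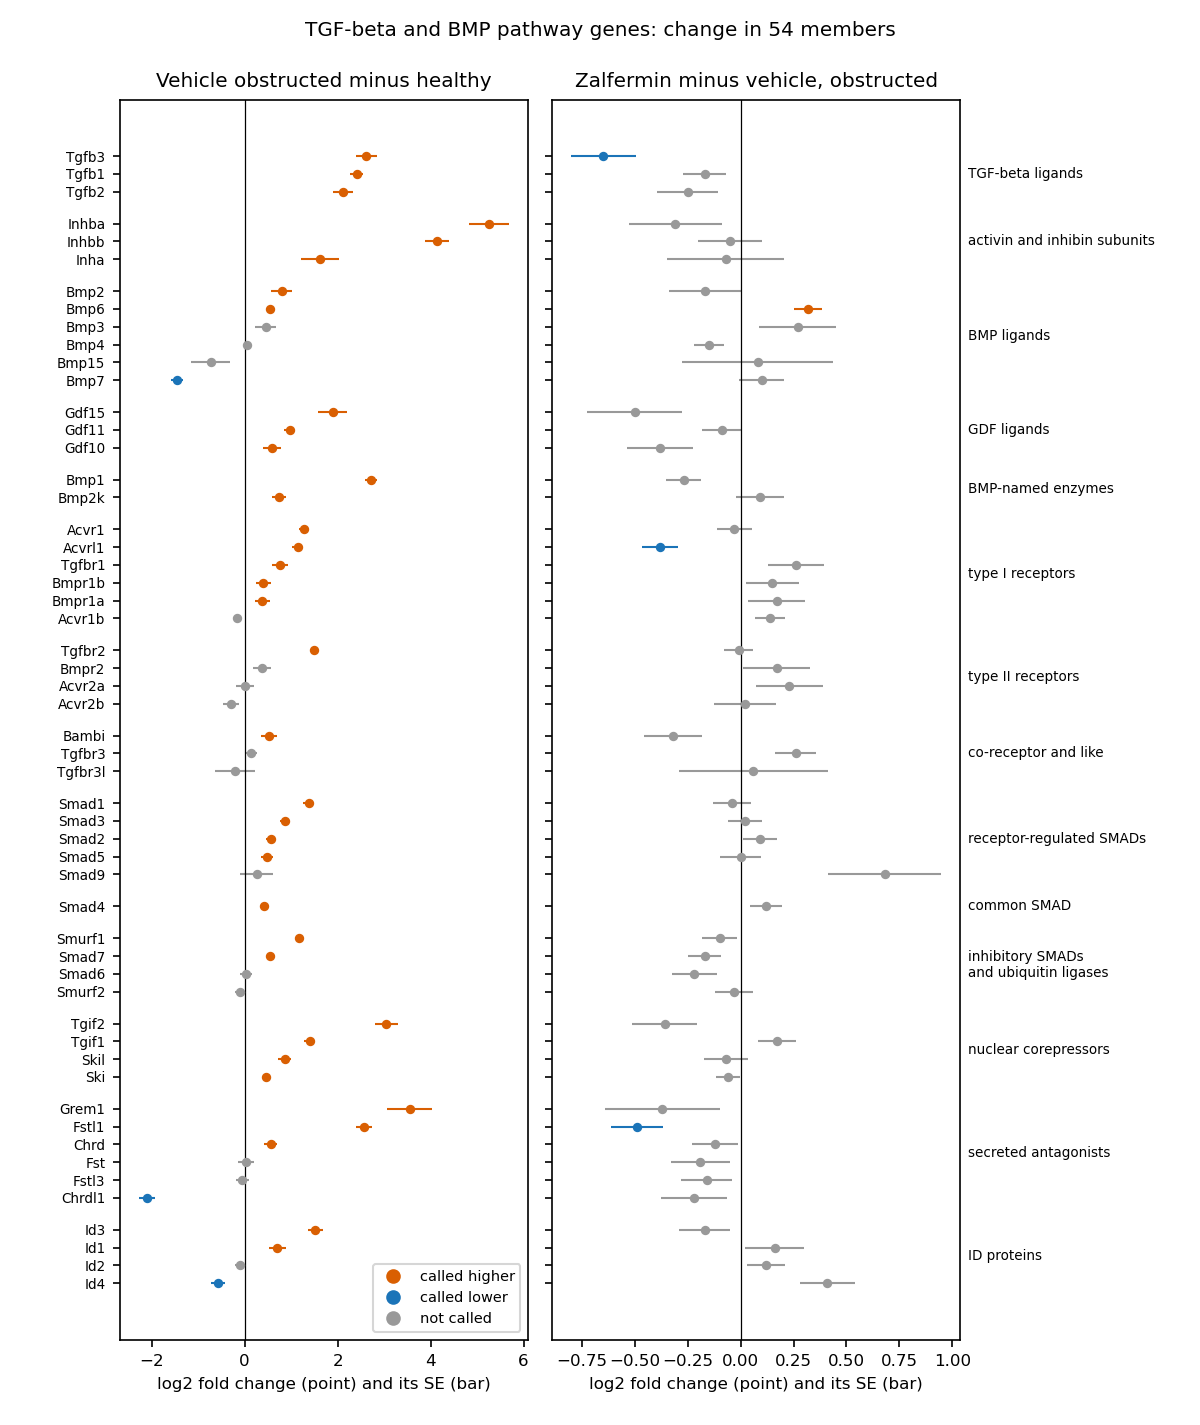
Log2 fold change (point) and its standard error (bar) of 54 of the 55 genes, grouped by role, for vehicle-treated obstructed against healthy kidneys (left) and for zalfermin against vehicle in obstructed kidneys (right, a narrower axis); orange marks genes called higher, blue lower and grey not called at an adjusted p under 0.05. On the left values run from -2.11 to 5.26 with 36 genes called higher, and on the right from -0.65 to 0.68 with 4 genes called.

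All 3 TGF-beta ligands rose with obstruction. Tgfb1, the main profibrotic isoform, measured 16.5, 12.3, 12.4 and 11.3 CPM in the 4 healthy libraries and 60.2 to 80.2 CPM (median 68.6) in the 7 vehicle libraries. The groups did not overlap, and the log2 fold change was 2.41 ± 0.143 (SE; edgeR adjusted p = 2.64e-12). Tgfb2 measured 3.83, 3.02, 3.2 and 2.26 CPM in healthy libraries and 7.56 to 17.8 CPM (median 12.9) in vehicle libraries, the lowest being replicate 6. Its groups were also separate, with a log2 fold change of 2.11 ± 0.21 (edgeR adjusted p = 9.96e-09). Tgfb3 went from 1.6, 2.31, 3.54 and 1.96 CPM to 11.3 to 17.9 CPM (median 14.8), again without overlap, a log2 fold change of 2.62 ± 0.229 (edgeR adjusted p = 1.22e-09). Divided by the length of the gene's exons, the mean level in vehicle kidneys was 13.8 CPM per kb for Tgfb1, 4.32 for Tgfb3 and 2.3 for Tgfb2, so Tgfb1 was the most abundant isoform in both states (2.6, 0.696 and 0.531 CPM per kb in healthy kidneys). On GRCm38 the genes span chromosome 7, 25687002 to 25705077 (Tgfb1, ENSMUSG00000002603), chromosome 1, 186622792 to 186705989 (Tgfb2, ENSMUSG00000039239) and chromosome 12, 86056745 to 86079041 (Tgfb3, ENSMUSG00000021253).

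The promoters of Tgfb1 and Tgfb2 differ in composition, and are printed because both transcripts rose. Each sequence runs from 250 bases before to 50 bases after the RefSeq start of the gene (GRCm38.p6), chr7:25686752-25687051 on the plus strand for Tgfb1 and chr1:186705940-186706239 on the minus strand for Tgfb2, and capitals mark CAGAC or its reverse complement GTCTG, the core to which SMAD3 and SMAD4 bind.
Tgfb1: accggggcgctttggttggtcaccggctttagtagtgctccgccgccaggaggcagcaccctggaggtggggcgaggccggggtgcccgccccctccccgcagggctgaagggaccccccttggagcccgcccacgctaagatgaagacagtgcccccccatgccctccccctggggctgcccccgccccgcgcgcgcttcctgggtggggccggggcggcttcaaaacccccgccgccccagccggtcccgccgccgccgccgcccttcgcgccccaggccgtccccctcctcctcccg
Tgfb2: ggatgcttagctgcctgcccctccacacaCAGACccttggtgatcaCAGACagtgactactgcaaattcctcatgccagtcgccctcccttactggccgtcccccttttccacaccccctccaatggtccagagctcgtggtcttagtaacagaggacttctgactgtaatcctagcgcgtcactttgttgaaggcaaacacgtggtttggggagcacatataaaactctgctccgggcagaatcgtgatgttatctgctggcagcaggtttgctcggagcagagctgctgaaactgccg
The Tgfb2 window held 2 copies of the core and the Tgfb1 window none, with a GC content of 54.3% and 77.0%. RefSeq windows were matched for 39 of the 55 genes. A gene was counted if any of its windows held the motif, so its share differs in unit from that over single windows. The CAGAC core, searched on both strands, was found for 48.7% of these genes and in 49.6% of all 32817 RefSeq windows of the same length. The palindrome GTCTAGAC, in which a pair of SMAD boxes meet head to head, was found for 1 of the 39 genes, Smad6, and in 0.213% of all windows. The motif TGANTCA of AP-1 was found for none of the 39 genes and in 7.81% of all windows. These matches describe the letters in the window and show nothing of the factors' binding. The first windows of the 39 genes were rich in GC, with a median of 69.3% against 52.7% over all windows.

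All 3 activin and inhibin subunits were called higher with obstruction. Inhba and Inha did not pass the low-count filter on healthy libraries alone, so their rises are not counted as support. Inhba encodes the subunit of activin A, which signals through SMAD2 and SMAD3 as TGF-beta does. It stood at 0.801, 0.71, 0.59 and 0.491 CPM in the healthy libraries and at 17.9 to 35.6 CPM (median 23.0) in vehicle libraries, every one of which was far above every healthy value. The log2 fold change was 5.26 ± 0.431 (edgeR adjusted p = 4.47e-10), from a mean of 0.648 ± 0.136 (SD, n = 4) to 25.3 ± 6.02 CPM (SD, n = 7). Inhbb, the subunit of activin B, measured 1.07, 1.86, 1.52 and 1.96 CPM in healthy and 22.8 to 35.2 CPM (median 24.7) in vehicle libraries. Its groups were separate as well, with a log2 fold change of 4.13 ± 0.261 (edgeR adjusted p = 7.07e-12). Inha encodes the alpha subunit that turns these into inhibins. It rose from 0.694 ± 0.127 to 2.15 ± 1.06 CPM (log2 1.62 ± 0.405, edgeR adjusted p = 0.00133), but 1 of 7 vehicle libraries, at 0.596 CPM, lay within the healthy range. Per kb of exon the vehicle means were 6.62 CPM for Inhbb, 3.95 for Inhba and 1.46 for Inha. Inhba lies at chromosome 13, 16011851 to 16031621 (ENSMUSG00000041324) and Inhbb at chromosome 1, 119415465 to 119422248 (ENSMUSG00000037035).

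**Figure D2:**
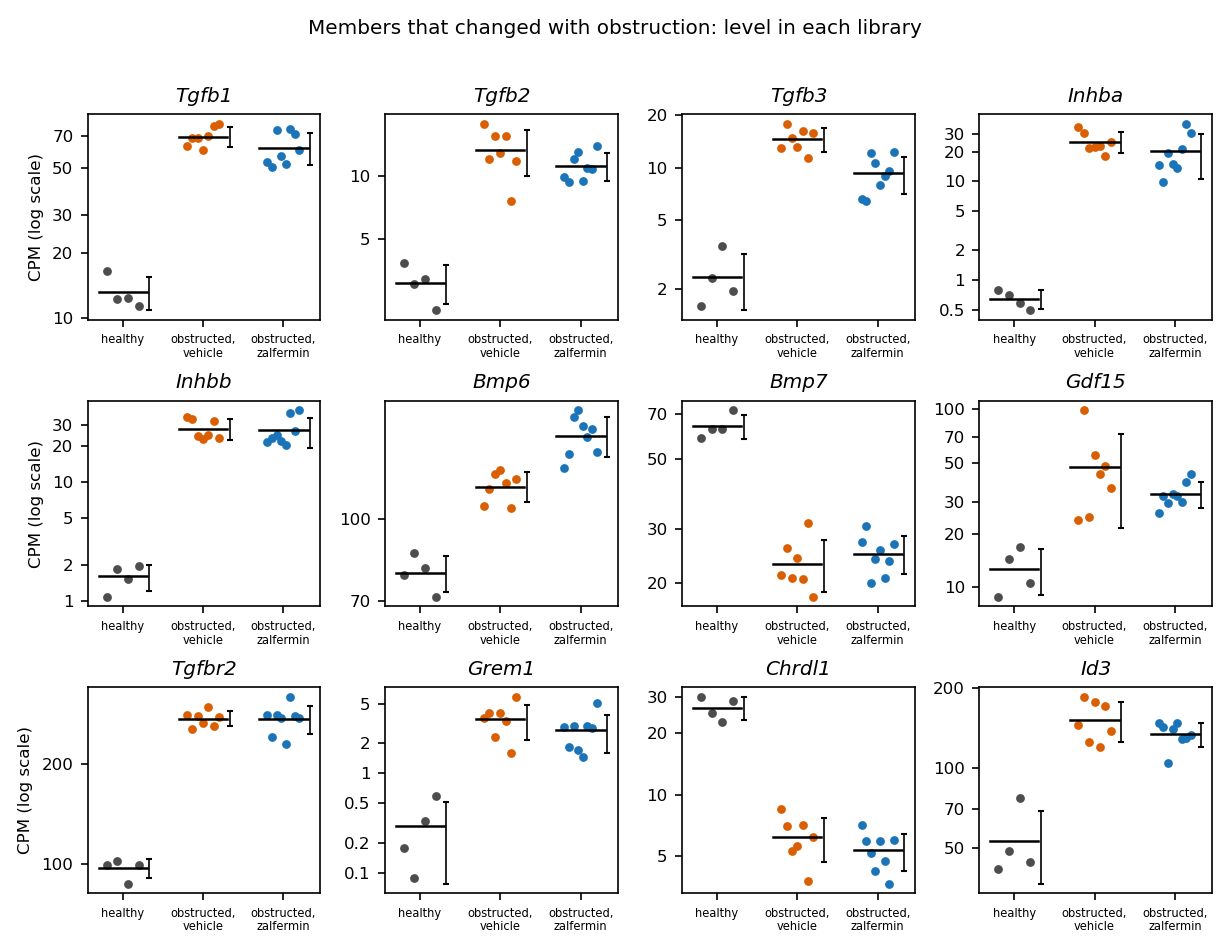
CPM on a logarithmic axis in each library (points) for 12 genes in healthy kidneys (4 libraries), vehicle-treated obstructed kidneys (7) and zalfermin-treated obstructed kidneys (8); horizontal lines are group means and vertical bars the SD. The vehicle points lie above all healthy points for Tgfb1, Tgfb2, Tgfb3, Inhba, Inhbb, Bmp6, Gdf15, Tgfbr2, Grem1 and Id3, and below them for Bmp7 and Chrdl1.

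The 6 BMP ligands did not move together: Bmp6 and Bmp2 rose, Bmp7 fell, and Bmp4, Bmp3 and Bmp15 were not called. Bmp7 measured 58.5, 62.3, 62.4 and 71.8 CPM in healthy libraries and 18.1 to 31.3 CPM (median 21.3) in vehicle libraries. The highest vehicle value, in replicate 6, was still below every healthy value. The log2 fold change was -1.46 ± 0.124 (edgeR adjusted p = 8.13e-10). The summed proximal tubule markers fell in the same libraries and replicate 6 was also the highest vehicle library for them, at 4305.0 CPM. The same held for the markers of the thick ascending limb and distal tubule (5674.2 CPM in replicate 6) and of the collecting duct (418 CPM). It did not hold for the podocyte markers, whose sum was 385 to 462 CPM in healthy and 340 to 424 CPM in vehicle libraries (406 CPM in replicate 6). The part of any of these cells in the fall of Bmp7 was not tested. Bmp6, which in the liver controls hepcidin, measured 78.4, 86.1, 80.6 and 71.1 CPM in healthy libraries and 105 to 124 CPM (median 117) in vehicle libraries. These did not overlap, with a log2 fold change of 0.54 ± 0.0828 (edgeR adjusted p = 5.05e-06). Bmp2 was scarce, with a mean of 3.04 ± 0.856 CPM in healthy kidneys and of 5.32 ± 1.12 CPM after obstruction (log2 0.8 ± 0.223, edgeR adjusted p = 0.00318).

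Bmp4 lay between 38.5 and 45.2 CPM in healthy and between 39.4 and 52.2 CPM in vehicle libraries, with a 95% interval for the log2 difference of -0.12 to 0.24. Bmp3, an atypical BMP that does not activate SMADs in the usual way, gave a log2 difference of 0.45 ± 0.234 (edgeR adjusted p = 0.0967). A healthy library at 7.21 CPM stood above the other healthy values of 3.2 to 3.46, and without that replicate 1 the call was gained (adjusted p = 0.00381). Voom called Bmp3 higher with all libraries (log2 0.68, adjusted p = 0.0102). Bmp15 stayed near 1 CPM in all groups. Per kb of exon, healthy kidneys held 20.3 CPM of Bmp6, 18.8 of Bmp4 and 15.9 of Bmp7, whereas vehicle kidneys held 29.6, 19.6 and 5.76. Bmp7 thus went from a level close to those of Bmp6 and Bmp4 to the lowest of the 3 by a wide margin. Bmp7 lies at chromosome 2, 172868012 to 172940321 (ENSMUSG00000008999) and Bmp6 at chromosome 13, 38345107 to 38500302 (ENSMUSG00000039004).

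All 3 GDF ligands were called higher. Gdf15, a stress-induced cytokine, measured 8.81, 14.5, 16.9 and 10.5 CPM in healthy and 23.9 to 99.0 CPM (median 43.5) in vehicle libraries. The groups were separate although the vehicle libraries were widely spread, and the log2 fold change was 1.89 ± 0.307 (edgeR adjusted p = 1.21e-05). Gdf11, a close relative of myostatin, rose by a log2 of 0.97 ± 0.118 from a mean of 9.66 to 18.9 CPM (edgeR adjusted p = 2.14e-07). Gdf10, also known as BMP3B, rose from 7.89 to 11.9 CPM with overlapping groups (edgeR adjusted p = 0.0119). Gdf3, just below the count minimum, had 0 counts in the 4 healthy libraries, 80 over the 7 vehicle libraries and 78 over the 8 zalfermin libraries. Of the enzymes that carry the BMP name, Bmp1, which processes procollagens and the antagonist chordin, rose from 11.5 ± 1.5 to 76.1 ± 8.97 CPM without overlap (log2 2.72 ± 0.122, edgeR adjusted p = 5.52e-14). Bmp2k, an endocytic kinase, rose from 29.6 to 49.2 CPM with overlap.

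Among the type I receptors 5 of 6 rose. Acvr1, which encodes the BMP receptor ALK2, measured 10.2, 11.7, 11.8 and 9.13 CPM in healthy and 22.1 to 27.5 CPM (median 26.7) in vehicle libraries (log2 1.27 ± 0.11, edgeR adjusted p = 1.13e-09). Acvrl1, the ALK1 receptor of endothelial cells, measured 16.5, 23.4, 17.7 and 13.8 CPM against 36.0 to 44.2 CPM (median 39.5), a log2 of 1.14 ± 0.112 (edgeR adjusted p = 7.62e-09). Neither gene's groups overlapped. The endothelial marker sum was 224 to 374 CPM in healthy and 249 to 388 CPM in vehicle libraries, with 2 of its 5 genes called higher and 1 lower. Tgfbr1, the TGF-beta type I receptor ALK5, rose from 83.3 ± 8.73 to 141 ± 36.3 CPM (log2 0.76 ± 0.166, edgeR adjusted p = 0.000396). All vehicle libraries exceeded the healthy ones except replicate 6, at 67.4 CPM.

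Bmpr1a and Bmpr1b, the ALK3 and ALK6 receptors for BMPs, were called higher by a narrow margin, with log2 fold changes of 0.38 ± 0.166 and 0.40 ± 0.16 (edgeR adjusted p = 0.0465 and 0.0318). Bmpr1a lost its call without any of healthy replicates 2, 3 or 4 or vehicle replicates 1, 2, 3, 4, 5 or 7 (adjusted p up to 0.124), and Bmpr1b without healthy replicate 2, 3 or 4 or vehicle replicate 1 or 7 (up to 0.121). In the lone library that stood low, vehicle replicate 6, Bmpr1a was at 55.5 CPM where the other vehicle libraries were at 116 to 147. Without that library Bmpr1a stayed called higher, as it did with voom. Its lowest edgeR adjusted p with any library left out was 1.88e-05. Acvr1b, the activin receptor ALK4, was not called (log2 -0.16, 95% interval -0.34 to 0.02), and was called lower without vehicle replicate 6 (log2 -0.25, adjusted p = 0.00863). With all libraries Acvr1b was called lower by edgeR with RLE library factors (log2 -0.24, adjusted p = 0.0158) and by DESeq2 (adjusted p = 0.0111).

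Of the 4 type II receptors, Tgfbr2 rose. This obligate TGF-beta receptor measured 99.4, 102, 87.2 and 99.5 CPM in healthy and 255 to 297 CPM (median 277) in vehicle libraries, with no overlap. Its log2 fold change was 1.49 ± 0.0892 (edgeR adjusted p = 2.92e-12). Bmpr2, the BMP type II receptor, was not called (log2 0.37 ± 0.193, edgeR adjusted p = 0.0952). Vehicle replicate 6 held 46.7 CPM of it against 124 to 150 in the other 6 libraries, and without that library it was called higher (log2 0.46, adjusted p = 0.000154). Voom called Bmpr2 higher with all libraries (log2 0.49, adjusted p = 0.000252). The activin receptors Acvr2a and Acvr2b gave log2 differences of -0.00 (95% interval -0.4 to 0.4) and -0.30 (-0.67 to 0.06). Acvr2b was called lower without healthy replicate 2 (log2 -0.45, adjusted p = 0.0308). Tgfbr3, the co-receptor betaglycan, gave 0.14 (-0.1 to 0.39) and was called higher without healthy replicate 1 (log2 0.29, adjusted p = 0.0384). Bambi, a pseudoreceptor that lacks the kinase domain, rose from 6.14 ± 1.62 to 8.89 ± 0.857 CPM (edgeR adjusted p = 0.00973), and with healthy replicate 4 left out its adjusted p was 0.0583. Tgfbr3l, a betaglycan-like protein, was near 1.5 CPM throughout.

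The intracellular signal carriers rose in both branches. Of the 5 receptor-regulated SMADs 4 were called higher. Smad1, of the BMP branch, measured 15.7, 14.5, 12.2 and 12.5 CPM in healthy and 27.2 to 41.8 CPM (median 36.2) in vehicle libraries, with no overlap (log2 1.38 ± 0.119, edgeR adjusted p = 9.84e-10). Smad3, of the TGF-beta branch, measured 54.1, 43.6, 47.9 and 44.2 CPM against 75 to 105 CPM (median 85.0), also with no overlap (log2 0.87 ± 0.104, edgeR adjusted p = 1.52e-07). Smad2 and Smad5 rose by a log2 of 0.56 ± 0.0998 and 0.48 ± 0.122 with overlapping groups. Smad9 was at 2.1 ± 0.636 and 2.53 ± 1.16 CPM and was not called. Smad4, shared by both branches, rose from 60.7 ± 2.82 to 81.1 ± 9.47 CPM (edgeR adjusted p = 0.000505).

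Among the brakes on the pathway the picture was mixed. Smad7, the inhibitory SMAD that TGF-beta itself induces, measured 24.2, 24.9, 26.4 and 23.0 CPM in healthy and 32.0 to 42.0 CPM (median 36.0) in vehicle libraries (log2 0.55 ± 0.0965, edgeR adjusted p = 3.48e-05). Its groups were separate. Smad6, the inhibitory SMAD of the BMP branch, gave a log2 difference of 0.03 (95% interval -0.24 to 0.29). Of the ubiquitin ligases that degrade receptors and SMADs, Smurf1 rose from 25.1 ± 3.92 to 56.7 ± 4.69 CPM (log2 1.18 ± 0.107, edgeR adjusted p = 2.3e-09), and Smurf2 gave -0.10 (-0.32 to 0.13). All 4 nuclear corepressors were called higher. Tgif2 did not pass the low-count filter on healthy libraries alone, so its rise is not counted as support. Tgif1 went from 22.6 ± 3.06 to 59.5 ± 6.65 CPM and Tgif2 from 1.03 ± 0.602 to 8.63 ± 1.31 CPM, log2 fold changes of 1.40 ± 0.118 and 3.05 ± 0.251. The SMAD-binding corepressors Skil and Ski rose by a log2 of 0.86 ± 0.132 and 0.45 ± 0.0701.

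The secreted antagonists included the steepest fall and, in Fstl1, a large rise. Chrdl1, a chordin-like BMP antagonist, measured 30.2, 25.2, 22.6 and 28.9 CPM in healthy and 3.75 to 8.48 CPM (median 6.17) in vehicle libraries. Every vehicle value lay below every healthy value, with a log2 fold change of -2.11 ± 0.172 (edgeR adjusted p = 4.28e-10). Grem1, which binds BMP2, BMP4 and BMP7, measured 0.178, 0.0888, 0.337 and 0.589 CPM in healthy and 1.61 to 5.85 CPM (median 3.58) in vehicle libraries. The groups were separate at a low level (log2 3.55 ± 0.487, edgeR adjusted p = 1.2e-06). Grem1 did not pass the low-count filter on healthy libraries alone, so its rise is not counted as support. Fstl1, a secreted glycoprotein made by mesenchymal cells, measured 53.0, 45.6, 37.9 and 25.6 CPM against 175 to 292 CPM (median 242), also separate (log2 2.57 ± 0.171, edgeR adjusted p = 1.66e-11). Chrd itself rose by a log2 of 0.56 ± 0.137 (edgeR adjusted p = 0.00109).

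The activin antagonists showed no call beside the large rise of the activin subunit Inhbb (that of Inhba is not counted as support). Fst, encoding follistatin, lay at 9.43 to 16.6 CPM in healthy and 10.6 to 15.5 CPM in vehicle libraries (log2 0.03, 95% interval -0.33 to 0.38), and Fstl3 at 10.3 to 17.2 and 10.9 to 16.6 CPM (log2 -0.05, -0.36 to 0.25). Whether these differ from Inhba and Inhbb was not tested.

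The ID proteins, which block basic helix-loop-helix factors and are classical BMP targets, moved in different directions: Id3 and Id1 rose, Id4 fell and Id2 was not called. Id3 measured 41.8, 48.7, 76.9 and 44.4 CPM in healthy and 120 to 186 CPM (median 145) in vehicle libraries, with no overlap (log2 1.52 ± 0.158, edgeR adjusted p = 1.81e-08). Id1 rose from 19.6 ± 6.08 to 31.8 ± 7.06 CPM with overlapping groups (log2 0.70 ± 0.179, edgeR adjusted p = 0.00172), a call that voom did not make (adjusted p = 0.0527). Id4 measured 63.7, 48.9, 80.8 and 39.6 CPM against 26.2 to 48.3 CPM (median 38.8), and the highest vehicle libraries overlapped the lowest healthy ones (log2 -0.57 ± 0.157, edgeR adjusted p = 0.00295). Id2 was the most abundant, at 130 CPM per kb of exon in healthy kidneys against 29.6 for Id3, 16.9 for Id1 and 15.1 for Id4, and its log2 difference was -0.09 (95% interval -0.32 to 0.13).

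The promoter windows of Id2, Id3 and Id4 are printed because these relatives differed in their calls, with Id3 higher, Id4 lower and Id2 not called. Id1, which also rose, is not printed, and no link between motif and direction was tested. The printed windows lie at chr12:25096043-25096342 (minus strand), chr4:136143572-136143871 (plus strand) and chr13:48260866-48261165 (plus strand) on GRCm38.p6, from RefSeq. Capitals mark the CAGAC core (or GTCTG) in Id3 and GGCGCC, a GC-rich core bound by SMAD1 and SMAD5, in Id2 and Id4.
Id2: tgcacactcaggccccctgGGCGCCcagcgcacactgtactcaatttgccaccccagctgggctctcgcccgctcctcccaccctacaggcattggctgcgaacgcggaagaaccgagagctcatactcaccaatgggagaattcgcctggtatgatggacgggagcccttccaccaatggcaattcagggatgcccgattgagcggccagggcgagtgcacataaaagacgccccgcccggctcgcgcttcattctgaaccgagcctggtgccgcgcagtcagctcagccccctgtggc
Id3: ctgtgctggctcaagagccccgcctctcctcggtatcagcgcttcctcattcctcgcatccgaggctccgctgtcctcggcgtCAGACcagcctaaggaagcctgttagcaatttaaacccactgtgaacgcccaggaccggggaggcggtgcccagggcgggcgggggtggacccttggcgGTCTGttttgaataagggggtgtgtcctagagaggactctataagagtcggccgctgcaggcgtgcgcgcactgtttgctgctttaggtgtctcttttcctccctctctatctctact
Id4: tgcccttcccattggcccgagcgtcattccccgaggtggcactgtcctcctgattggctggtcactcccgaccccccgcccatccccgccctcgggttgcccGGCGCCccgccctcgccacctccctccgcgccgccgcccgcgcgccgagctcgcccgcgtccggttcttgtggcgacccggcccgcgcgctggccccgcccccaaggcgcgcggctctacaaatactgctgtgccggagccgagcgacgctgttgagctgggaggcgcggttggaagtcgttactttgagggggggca
The Id3 window held 2 CAGAC cores and no GGCGCC, and the Id2 and Id4 windows each held 1 GGCGCC and no CAGAC core. GGCGCC, a palindrome, was in any window of 14 of the 39 matched genes (35.9%) and in 11.9% of all 32817 windows. That comparison sets genes beside single windows, and the higher GC content of the genes' first windows (69.3% against 52.7%) also touches it.

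Other genes of the pathway were read from lists chosen for their role. Of 12 genes for the latency and activation of TGF-beta, 9 rose and 1 fell with obstruction. Among all genes tested, 36.2% were higher and 28.6% lower. Fbn1, the microfibril protein that anchors latent complexes, rose from 11.3 ± 2.74 to 141 ± 26.2 CPM, Ltbp2 from 0.866 ± 0.459 to 41.6 ± 6.31 CPM and Nrros, which tethers latent TGF-beta on myeloid cells, from 3.76 ± 1.08 to 22.2 ± 2.54 CPM. The protease Furin fell from 336 ± 19.9 to 232 ± 50.5 CPM (edgeR adjusted p = 0.00024). All 14 TGF-beta response genes rose (36.2% of all genes did), and their median log2 fold change was 2.33, against 0.09 over all genes. Fn1 (fibronectin), Col1a1 (type I collagen) and Tgfbi, which had the smallest p-values, gave log2 fold changes of 4.37 ± 0.166, 4.96 ± 0.227 and 3.04 ± 0.139. Col1a1 and Acta2 of this list are also on the fibroblast marker list. Ltbp2 had 3 to 14 counts per healthy library and Timp1, of the response genes, 0 to 8. Neither passed the low-count filter on healthy libraries alone, and their rises are therefore not counted as support. The 9 latency and activation genes that rose still include Ltbp2. The 14 response genes and their median of 2.33 still include Timp1.

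Of 12 tested genes among further antagonists and co-receptors, 7 rose and 2 fell (36.2% and 28.6% of all genes tested). Bmper had 0 to 4 counts per healthy library and Lefty1 2 to 10. Neither passed the low-count filter on healthy libraries alone, so their rises are not counted as support, although the 7 that rose still include both. Nbl1, a BMP antagonist, rose by a log2 of 2.33 ± 0.18 and Dcn (decorin) by 1.91 ± 0.235. Sostdc1, a BMP antagonist of the tubule, went from 152 ± 23.8 to 60.3 ± 8.53 CPM without overlap (log2 -1.33 ± 0.141, edgeR adjusted p = 2.48e-08). Of 14 tested SMAD partners and turnover factors 5 rose and 5 fell, near the shares of all genes (36.2% higher and 28.6% lower), and without vehicle replicate 6 these counts were 8 and 5. Fkbp1a, which holds type I receptors inactive, rose by a log2 of 0.61 ± 0.0892, and the transcription factors Zeb2 and Zeb1 by 1.59 ± 0.238 and 1.18 ± 0.187.

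**Figure D3:**
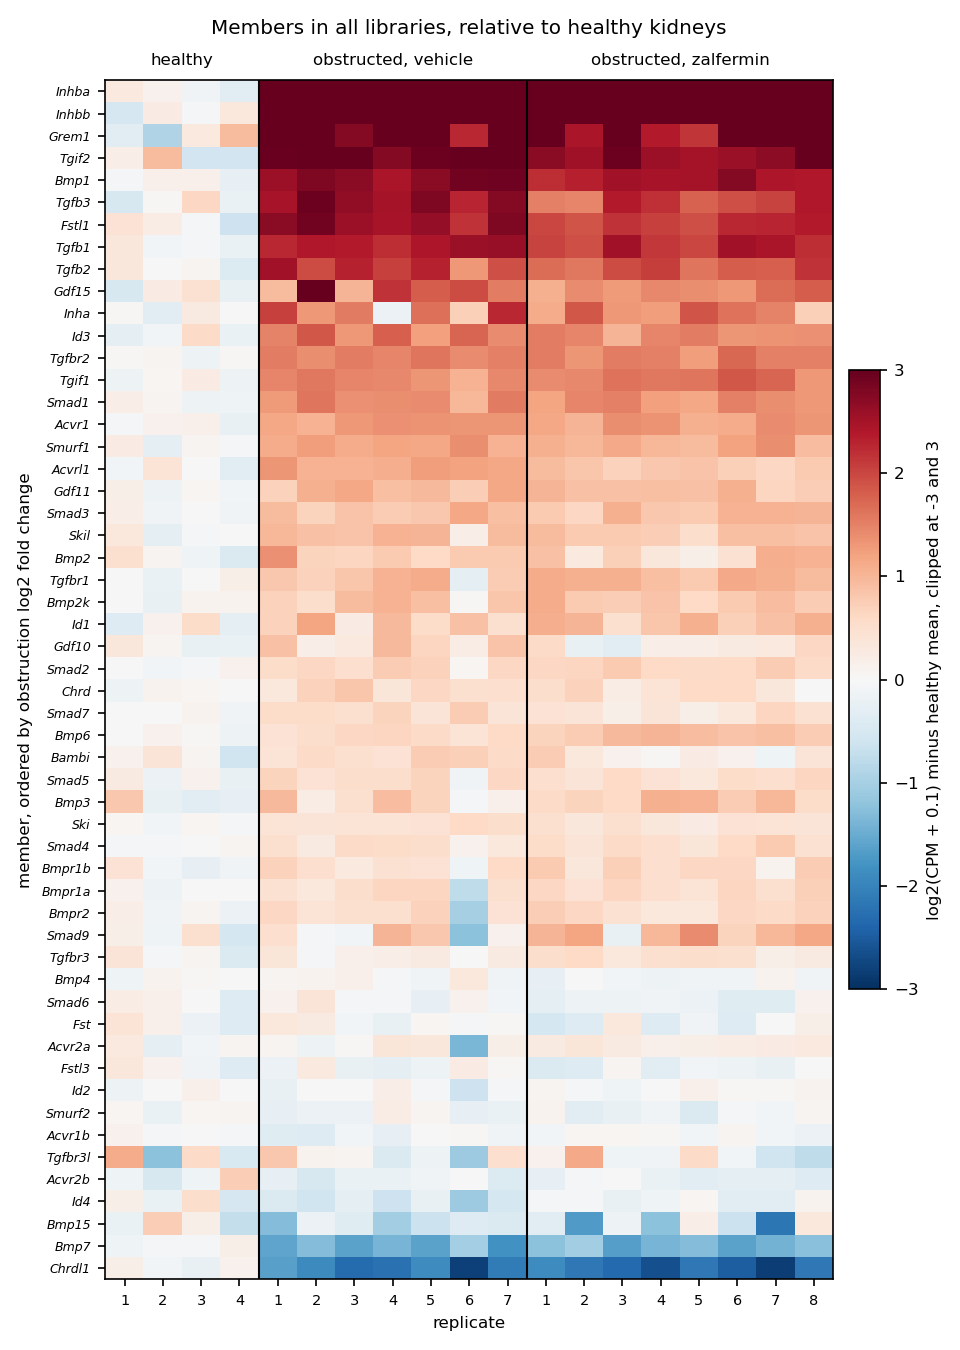
Heat map of 54 of the 55 genes (rows, ordered by the obstruction log2 fold change) in the 19 libraries (columns, by group and replicate number), as log2(CPM + 0.1) minus the mean of the 4 healthy libraries, with the color scale clipped at -3 and 3. The upper rows are red in the obstructed libraries, except Inha in vehicle replicate 4 (0.596 CPM, within the healthy range). Bmp7 and Chrdl1 at the foot are blue, and vehicle replicate 6 is paler or blue in Tgfbr1, Bmpr1a, Bmpr2 and Acvr2a.

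The drug comparison asks how the same transcripts differ between zalfermin and vehicle in obstructed kidneys. Of the 55 genes 1 was higher (Bmp6; 0.867% of all genes were called higher) and 3 were lower (Acvrl1, Tgfb3 and Fstl1; 0.942% of all genes were called lower). The 4 together make 7.27% of the 55, against 1.81% of the 16026 genes tested. Called genes over the whole table were 139 higher and 151 lower, and 105 and 191 with upper-quartile library factors. The 1 higher stayed 1 with any library left out. The 3 lower became 0 without vehicle replicate 7, 1 without any of vehicle replicates 1, 2 and 5 or zalfermin replicates 1, 2 and 5, 2 without vehicle replicate 3 or zalfermin replicate 3, 4 or 7, and 3 or 4 otherwise, and voom called 7 lower. At an unadjusted p under 0.05 there were 4 higher and 11 lower, or 7.27% and 20% of the 55, against 7.94% and 7.53% of all genes. The median log2 fold change was -0.05 over the 55 genes and 0.01 over all genes, and 33 of the 55 (60.0%) lay below 0 against 48.0% of all genes. No change reached 2-fold (0.156% of all genes were called higher and 0.144% lower by that much).

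Bmp6 was higher with zalfermin. It measured 125 to 161 CPM (median 146) in the 8 zalfermin libraries and 105 to 124 CPM (median 117) in the 7 vehicle libraries. The lowest zalfermin library stood just above the highest vehicle library, so the groups did not overlap (0.349% of all genes were higher without overlap). The log2 fold change was 0.32 ± 0.0667 (95% interval 0.18 to 0.46, edgeR adjusted p = 0.0154), and with any library left out the adjusted p was at most 0.0378. Exons of Bmp6 overlap those of Txndc5 on the opposite strand, and the sources used here do not give the counting program's strand setting. Txndc5 was not called, with 185 ± 22.9 CPM in vehicle and 173 ± 7.5 CPM in zalfermin libraries (log2 -0.10 ± 0.0704). With obstruction Txndc5 was called higher, from 137 ± 11.3 to 185 ± 22.9 CPM without overlap (log2 0.43 ± 0.0869, edgeR adjusted p = 0.000143), beside a log2 of 0.54 for Bmp6. Bmp6 was also higher in vehicle than in healthy kidneys, so its level ran from 79.1 ± 6.22 to 115 ± 7.48 to 144 ± 12.3 CPM over healthy, vehicle and zalfermin kidneys.

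Acvrl1, the endothelial receptor for BMP9 and BMP10, was lower with zalfermin. It measured 27.0 to 34.2 CPM (median 30.4) against 36.0 to 44.2 CPM (median 39.5), and the groups did not overlap (0.256% of all genes were lower without overlap). The log2 fold change was -0.38 ± 0.086 (95% interval -0.56 to -0.2, edgeR adjusted p = 0.0237), with the call lost without vehicle replicate 1 (adjusted p = 0.0509) or 7 (0.0505). All 8 zalfermin libraries remained above the highest healthy value of 23.4 CPM. The sum of the endothelial markers was 249 (replicate 6) to 388 CPM (median 324) in vehicle and 253 to 365 CPM (median 277) in zalfermin libraries. By edgeR 0 of its 5 genes were called (0 by DESeq2 and 0 by voom). The part of these markers in the lower level of Acvrl1 was not tested.

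Tgfb3 was lower with zalfermin, at 6.45 to 12.3 CPM (median 9.2) against 11.3 to 17.9 CPM (median 14.8). All 8 zalfermin libraries lay below the vehicle median, and the groups overlapped between 11.3 and 12.3 CPM. Its log2 fold change of -0.65 ± 0.153 (95% interval -0.97 to -0.33) was the largest decrease of the set (edgeR adjusted p = 0.0275). Leaving out any of vehicle replicates 2, 5 and 7 or of zalfermin replicates 1, 2 and 5 ended the call (adjusted p up to 0.0711). The other isoforms were not called by edgeR, with log2 differences of -0.17 (-0.38 to 0.03) for Tgfb1 and -0.25 (-0.55 to 0.05) for Tgfb2. Voom called Tgfb2 lower (log2 -0.36, adjusted p = 0.043). The difference between the isoforms was not tested.

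Fstl1 was lower with zalfermin as well, at 145 to 204 CPM (median 169) against 175 to 292 CPM (median 242), with 8 of 8 zalfermin libraries below the vehicle median and some overlap. The log2 fold change was -0.49 ± 0.123 (95% interval -0.74 to -0.23, edgeR adjusted p = 0.0427). It passed the threshold only narrowly: leaving out any of vehicle replicates 1, 2, 3, 5 and 7 or of zalfermin replicates 1, 2, 3, 4, 5 and 7 ended the call (adjusted p up to 0.105). The fibroblast and myofibroblast marker sum was 1131.7 to 2048.8 CPM in vehicle and 724 to 1151.2 CPM in zalfermin libraries, 1 of its 6 genes (Col1a1) being called lower, or 3 (Col1a1, Dcn and Pdgfrb) without vehicle replicate 6. Col1a1, at a mean of 746 CPM in vehicle and 411 CPM in zalfermin libraries, weighs heavily in this sum. The part of these markers in the lower levels of Fstl1 and Tgfb3 was not tested.

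**Figure D4:**
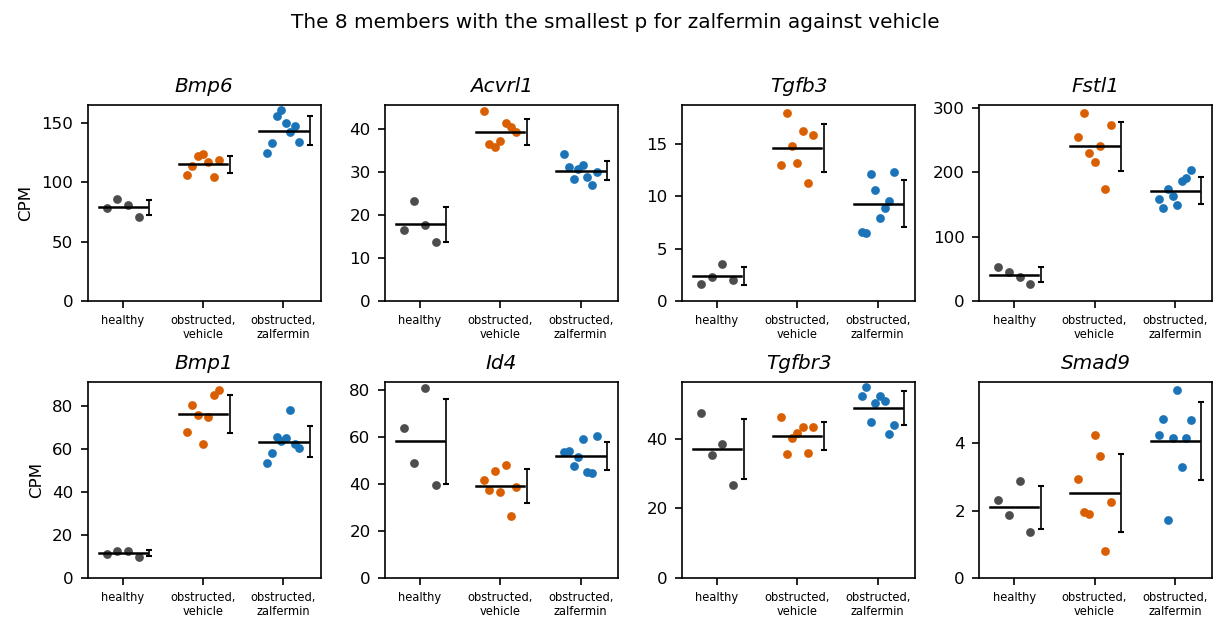
CPM in each library (points) for the 8 genes with the smallest p in the comparison of zalfermin with vehicle, by group (4 healthy, 7 vehicle, 8 zalfermin); horizontal lines are means, vertical bars the SD, and every axis starts at 0. Zalfermin points lie above all vehicle points for Bmp6 and below them for Acvrl1, and the groups overlap for the other 6 genes.

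The next 4 genes by p did not pass the threshold. Bmp1 was at 63.2 ± 7.09 CPM with zalfermin and 76.1 ± 8.97 with vehicle (log2 -0.27 ± 0.0848, edgeR adjusted p = 0.116). Id4 was at 44.7 to 60.6 CPM (median 52.8) against 26.2 to 48.3 CPM (median 38.8), with all 8 zalfermin libraries above the vehicle median (log2 0.41 ± 0.131, edgeR adjusted p = 0.12). Tgfbr3 gave a log2 difference of 0.26 ± 0.0968 (edgeR adjusted p = 0.199) and Smad9 0.68 ± 0.269 (edgeR adjusted p = 0.219), each with 7 of 8 zalfermin libraries above the vehicle median. By edgeR no further member was called, whereas voom also called Bmp1, Tgfb2, Gdf10 and Tgif2 lower (adjusted p = 0.0353, 0.043, 0.0472 and 0.0422), and edgeR called Bmp1 without zalfermin replicate 6 (adjusted p = 0.0432). The 95% interval of the log2 difference was -0.77 to 0.14 for Inhba, -0.36 to 0.26 for Inhbb, -0.12 to 0.32 for Bmp7, -0.93 to 0.2 for Grem1, -0.54 to 0.1 for Chrdl1, -0.96 to -0.03 for Gdf15 and -0.42 to 0.08 for Id3. The interval was -0.15 to 0.14 for Tgfbr2, -0.15 to 0.19 for Smad3 and -0.22 to 0.15 for Smad1. It was wider for the type II receptors Bmpr2 (-0.16 to 0.49) and Acvr2a (-0.09 to 0.56), and the SE was larger for Smad9, given above.

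Among the further pathway genes, zalfermin libraries were lower in Fbn1 (141 ± 26.2 to 97.6 ± 15.3 CPM, log2 -0.53 ± 0.122, edgeR adjusted p = 0.0259) and Ltbp4 (93.9 ± 13.6 to 70.1 ± 7.36 CPM, log2 -0.42 ± 0.0949, edgeR adjusted p = 0.0231), 2 of the 12 latency and activation genes. DESeq2 also called Ltbp2 lower, and voom Ltbp2 and Nrros. Of the 14 TGF-beta response genes Col1a1 and Fn1 were called lower by edgeR. Beside these 2 lists, 0.942% of all genes tested were called lower. DESeq2 also called Pmepa1 lower, voom Pmepa1 and Snai2, and edgeR Snai2 without vehicle replicate 6. Col1a1 went from 560 to 1243.5 CPM (median 648) in vehicle to 298 to 498 CPM (median 428) in zalfermin libraries, and Fn1 from 478 to 678 CPM (median 566) to 293 to 460 CPM (median 398). Both were separate between the groups, with log2 fold changes of -0.86 ± 0.143 and -0.58 ± 0.108 (edgeR adjusted p = 0.00301 and 0.00689). By edgeR 0 of the 12 further antagonists and co-receptors were called (3 at an unadjusted p under 0.05; 0 by DESeq2, 1 by voom, Dcn), and 0 of the 14 SMAD partners (3 at an unadjusted p under 0.05; 0 by DESeq2, 1 by voom, Zeb2).

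Zalfermin-treated obstructed kidneys were also set against healthy kidneys, a comparison that shares its libraries with both others. Of the 55 genes 38 were higher and 2 lower (37.3% and 27.0% of all genes tested), with a median log2 fold change of 0.65 against 0.13 over all genes. Of the 49 that passed the low-count filter on healthy libraries alone, which leave out Inhba, 34 were higher and 2 lower. Inhba gave a log2 fold change of 4.95, Inhbb 4.08, Tgfb1 2.24, Tgfb3 1.97 and Bmp6 0.86. Chrdl1 and Bmp7 were the members called lower, at -2.33 and -1.36. Id4, called lower in vehicle kidneys, was not called here (log2 -0.16, edgeR adjusted p = 0.368).

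Counts of genes that overlap on opposite strands are uncertain for the reason given for Bmp6. Beside that gene this touches Bmp4 (Gm15217, which gave a log2 of -1.38 with obstruction), Chrd (Thpo, -0.44), Tgif2 (5430405H02Rik, -0.60), Acvr2a (Orc4, -0.30), Bmp2k (Paqr3, -0.31) and Id4 (Gm49291, -0.65).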

How the data were processed

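Total RNA from whole kidney was made into directional libraries and sequenced on a NextSeq instrument, per the labels' protocols. The authors deposited whole-number read counts per gene for the 19 libraries; reads were aligned with STAR 2.7.0f to GRCm38, per the submitters' processing notes, and the sources used here do not give the counting program, its strand setting or the annotation. Counts were analysed with edgeR 4.0.16 in R 4.3.3: TMM library factors, filterByExpr (minimum count 10, minimum total 15; 16026 genes), 1 quasi-likelihood fit over the 3 groups without covariates, two-sided F tests of each contrast and Benjamini-Hochberg adjustment over all tested genes, with a threshold of 0.05. SE is the absolute log2 fold change divided by the square root of F, and intervals are 95%. CPM uses the TMM-scaled library sizes, and CPM per kb the union of each gene's annotated exons.

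Alternatives were RLE and upper-quartile library factors, DESeq2 1.42.0, voom with quality weights (limma 3.58.1), omission of the low-count filter or its replacement by 1 CPM in 4 libraries, fits of just the 2 compared groups, and each library left out in turn. Named genes are the 12 largest called rises and the called falls with at least 1 CPM, the called genes and the 8 smallest p-values of the drug comparison, a fixed set of core pathway genes, the genes nearest the count minimum, and in each further list the 3 smallest p-values and those called with the drug; other members are named for their family or for a changed call. The members, lists and tests were chosen with earlier results of these data known. Of the members and of the response genes, 1 each is in the counts and is not reported here by name. Scripts were tested on simulated data.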

Additional observations from a re-analysis of the deposited data

Results flagged for a closer look

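In each group the gap between the highest or lowest library and its nearest neighbour was compared with the group's range by Dixon's criterion, for 162 combinations of gene and group. It singled out 12 of the 162, where chance alone flags about 1 in 20 of the combinations. Many of the 12 may therefore be chance. Vehicle replicate 6 accounted for 5 of them, all as the lowest vehicle library: Tgfbr1 at 67.4 CPM (133 to 179 in the others), Bmpr1a at 55.5 CPM (116 to 147), Bmpr2 at 46.7 CPM (124 to 150), Smad5 at 63.2 CPM (92.5 to 109) and Skil at 54.0 CPM (83.9 to 96.0). This library also had the fewest genes detected and the lowest mitochondrial share. Whether its low receptor levels belong with these features was not tested.

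Zalfermin replicate 8 was the highest of its group in 2 antagonists of BMP signalling: Grem1 at 5.06 CPM (1.47 to 3.01 in the others) and Smad6 at 17.5 CPM (12.3 to 14.7). The remaining libraries had 1 each. Gdf15 was at 99.0 CPM in vehicle replicate 2 (23.9 to 55.1 in the others), Bmp2 at 7.78 CPM in vehicle replicate 1 (4.51 to 5.17) and Id3 at 105 CPM in zalfermin replicate 3 (129 to 148). Smurf2 was at 74.9 CPM in healthy replicate 2 (88.9 to 91.3) and Bmp3 at 7.21 CPM in healthy replicate 1 (3.2 to 3.46).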

How the results depend on the processing

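The counts of the 55 genes called with obstruction stayed within 1.5 times under every alternative run (33 to 38 higher, 3 or 4 lower). With the drug the count called lower was 7 with voom, which added Bmp1, Gdf10, Tgfb2 and Tgif2, and 0 to 4 with a library left out; it fell to 0 without vehicle replicate 7 and to 1 without vehicle replicate 1, 2 or 5 or zalfermin replicate 1, 2 or 5. Bmp6 remained called in all of these fits. Over all genes the drug comparison called 290, against 602 with DESeq2, 1148 with voom and 153 to 517 with a library left out. Against healthy kidneys the zalfermin group had 4 genes lower with DESeq2 and 2 to 4 with a library left out. Genes that were not called with obstruction changed sign: Bmp4 (-0.02 with RLE and DESeq2, -0.04 without vehicle replicate 6), Smad6 (-0.05 with RLE and DESeq2, -0.04 with voom, -0.09 to 0.10 with a library left out) and Fst (-0.05 with RLE and DESeq2, -0.09 to 0.18 with a library left out). Bmpr1a and Bmpr1b lost their obstruction calls with RLE, DESeq2 and the fit of the 2 groups. The cause of these changes was not tested. No paired analysis was possible because the labels give no replicate numbers shared between groups. Genes near 1 CPM, such as Bmp15, Tgfbr3l and Inha, rest on few counts, and their intervals are wide.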
